A study of Ovis aries with 9 samples.

Results

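Transcripts of 10 antioxidant enzyme genes (SOD1, SOD2, SOD3, CAT, GPX1, GPX3, GPX4, PRDX3, PRDX6 and TXN2) were followed in the back muscle of fetal sheep before birth. Each gene was taken as the locus whose name holds its symbol in the deposited gene table. All 10 were found, each at 1 locus, among 22605 loci. Of these 10 genes, 9 reached at least 1 FPKM in at least 3 libraries and were tested among 13086 loci, and SOD3 did not. FPKM counts read fragments per unit of transcript length and per mapped fragment of a library, so levels of different genes can be set side by side.

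The samples were longissimus dorsi, the long muscle of the back, from Chinese merino fetuses. There were 3 libraries at gestation day 85 (D85), 3 at day 105 (D105) and 3 at day 135 (D135). No treatment or genotype is named in the labels. Whether each library came from a fetus of its own is not stated in the labels, so the p-values reflect library-to-library spread, part or all of which may be technical.

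Superoxide is a by-product of respiration, and superoxide dismutases turn it into hydrogen peroxide in the mitochondrial matrix (SOD2), the cytosol (SOD1) and the extracellular space (SOD3). Hydrogen peroxide is then removed by catalase (CAT) in peroxisomes, by peroxiredoxins that draw their electrons from thioredoxins or glutathione, and by glutathione peroxidases. Skeletal muscle builds up mitochondria as its fibres mature, and the time before birth precedes the change to breathing air.

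The muscle label was matched by the fibre genes: the 6 markers (ACTA1, CKM, MYLPF, DES, TTN and TNNC2) summed to between 6997 and 9381 FPKM at D85, 8537 and 11603 at D105, and 16415 and 19954 at D135. Column totals ranged from 395797 to 489270 FPKM, and depth in reads is unknown. Relative to D85 replicate 1, depth estimated from 82 to 122 low loci was 0.993 to 1.2 in the other libraries. D105 replicate 2 stood apart, with 114 FPKM over 6 adipocyte markers and 321 FPKM over 6 tendon and cartilage markers, against at most 7.71 and 17.98 FPKM in D105 replicates 1 and 3. Over the 13086 loci, the median change on the log2 scale was -0.35 when D135 was set against D85, -0.33 when D135 was set against D105, and -0.02 when D105 was set against D85, so that a gene at a constant FPKM stood above most loci at D135. After median-of-ratios scaling these medians were 0.01, 0.01 and -0.01. Changes are given on the log2(FPKM + 1) scale, which understates those of low genes.

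The 10 genes were not equally abundant. At D85 GPX4 was the highest at 48.0 ± 5.30 FPKM (SD, n = 3), above GPX1 at 17.0 ± 6.62 FPKM. CAT (16.3 ± 0.305), PRDX3 (14.1 ± 2.51), SOD2 (13.9 ± 1.52), TXN2 (13.6 ± 2.69), PRDX6 (13.1 ± 0.843) and SOD1 (10.96 ± 6.54 FPKM) followed. From GPX1 to SOD1, neighbours in this order did not differ beyond their spread. GPX3 at 2.63 ± 1.71 FPKM and SOD3 at 0.393 ± 0.213 FPKM were the lowest at D85, and they held the last places at D105 and D135 too. At D135 the order at the top was different: SOD2 led with 29.2 ± 6.12 FPKM, then CAT with 25.9 ± 3.40, PRDX3 with 23.8 ± 0.548 and GPX4 with 20.4 ± 6.15 FPKM. These neighbours at D135 also lay within their spread of each other.

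**Figure D1:**
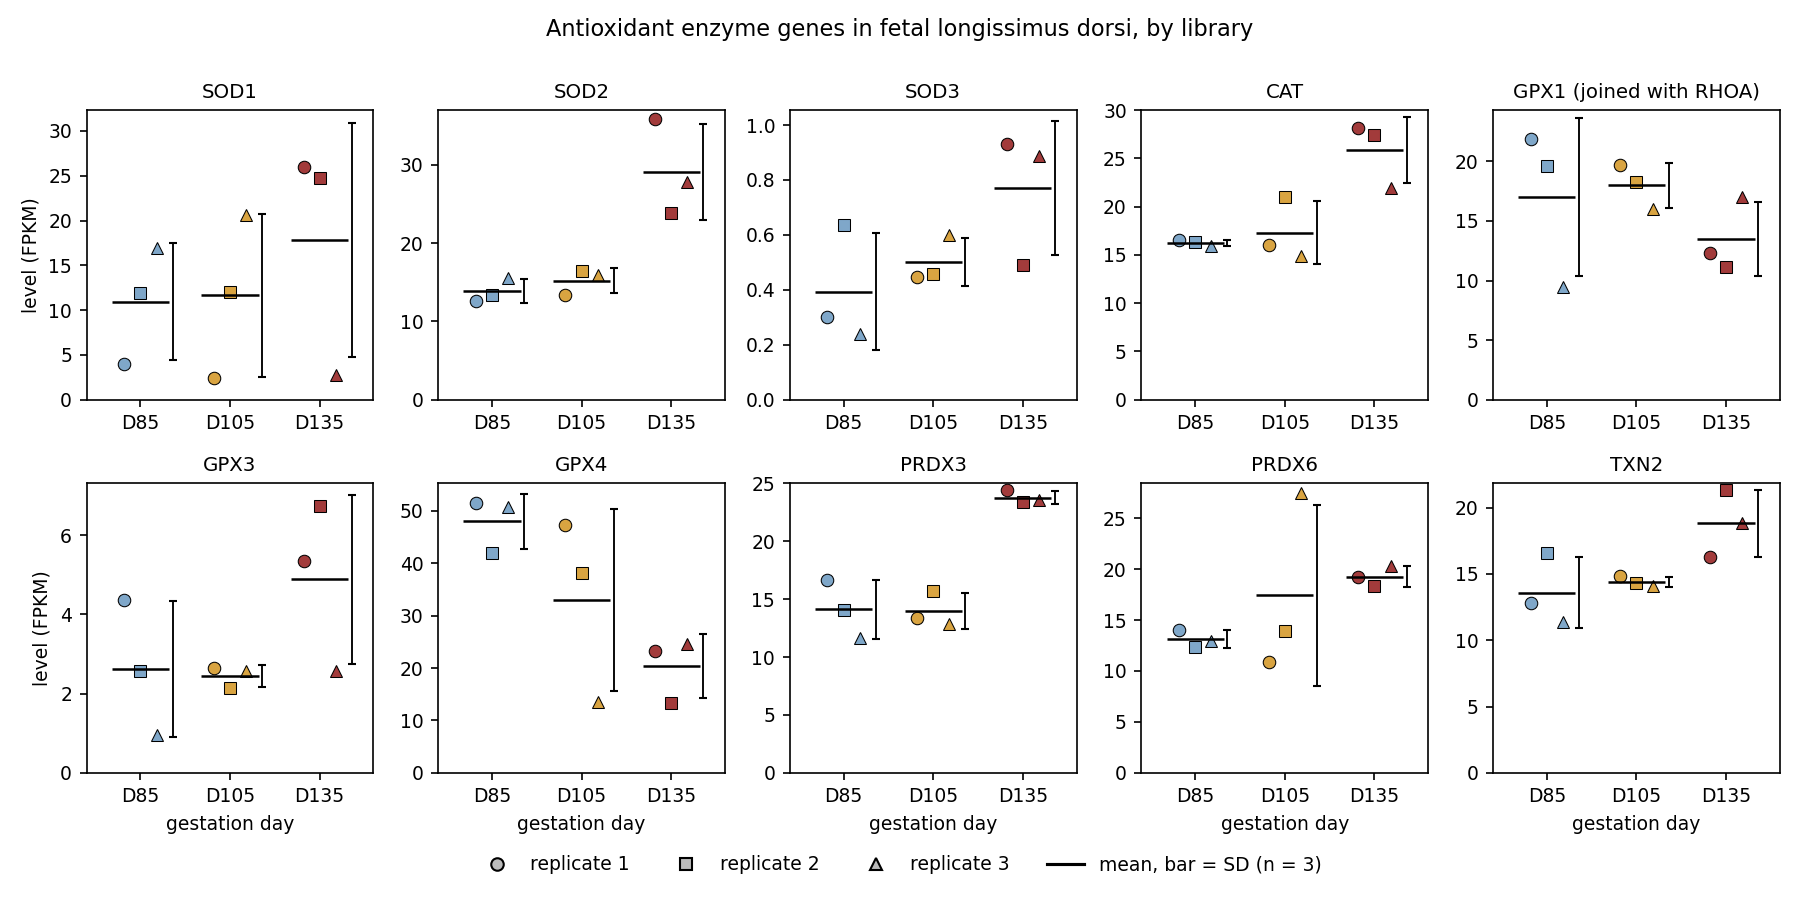
FPKM of the 10 genes in each library (y axes, linear, separate for each gene) at gestation days 85, 105 and 135 (x axes), with the mean and SD of the 3 libraries of a day. SOD2, CAT and PRDX3 lie higher at D135 than in any library of D85 or D105, while GPX4 lies lower at D135 than at D85 and SOD1 varies within every day.

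Between D85 and D105 none of the 9 tested genes passed the test (limma with Benjamini-Hochberg adjustment over all loci, threshold 0.05), where 0.199% of all tested loci were called. At an unadjusted p under 0.05 the count for the 9 genes was also 0, and 12.3% of all loci passed. PRDX3 stood at 14.0 ± 1.53 FPKM at D105, against 14.1 ± 2.51 FPKM at D85 (SD, n = 3 each), with a 95% interval of the log2 change from -0.31 to 0.30. SOD2 stood at 15.2 ± 1.63 FPKM at D105, against 13.9 ± 1.52 FPKM at D85, with an interval from -0.25 to 0.49. CAT stood at 17.3 ± 3.25 FPKM at D105, against 16.3 ± 0.305 FPKM at D85, with an interval from -0.26 to 0.40. The intervals of GPX4 (-1.69 to 0.30) and SOD1 (-2.28 to 2.10) were wider, since 1 or more libraries of a day lay far from the others.

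SOD2 and PRDX3 of the mitochondrial matrix and catalase were higher at D135 than on both earlier days. Against D85, 4 of the 9 tested genes rose (SOD2, PRDX3, CAT and TXN2), where 6.90% of all tested loci were called higher, and 1 fell (GPX4), where 39.7% of all loci were called lower. Against D105, 3 of the 9 rose (SOD2, PRDX3 and CAT), where 4.47% of all loci were called higher, and 0 fell, where 35.0% of all loci were called lower. At an unadjusted p under 0.05 the count lower at D135 than at D105 was 0 of 9 as well, where 43.8% of all loci were lower. All D135 libraries lay above all D85 libraries for 4 of the 9 genes (SOD2, CAT, PRDX3 and PRDX6), where 9.42% of all loci did, and below them for 1 (GPX4), where 48.8% did. They lay above all D105 libraries for 4 (SOD2, CAT, PRDX3 and TXN2), where 6.43% of all loci did. The median log2 change of the 9 genes was 0.52 for D135 against D85, beside -0.35 for all loci, and 0.49 for D135 against D105, beside -0.33. The comparisons share libraries, so they do not count as separate evidence.

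**Figure D2:**
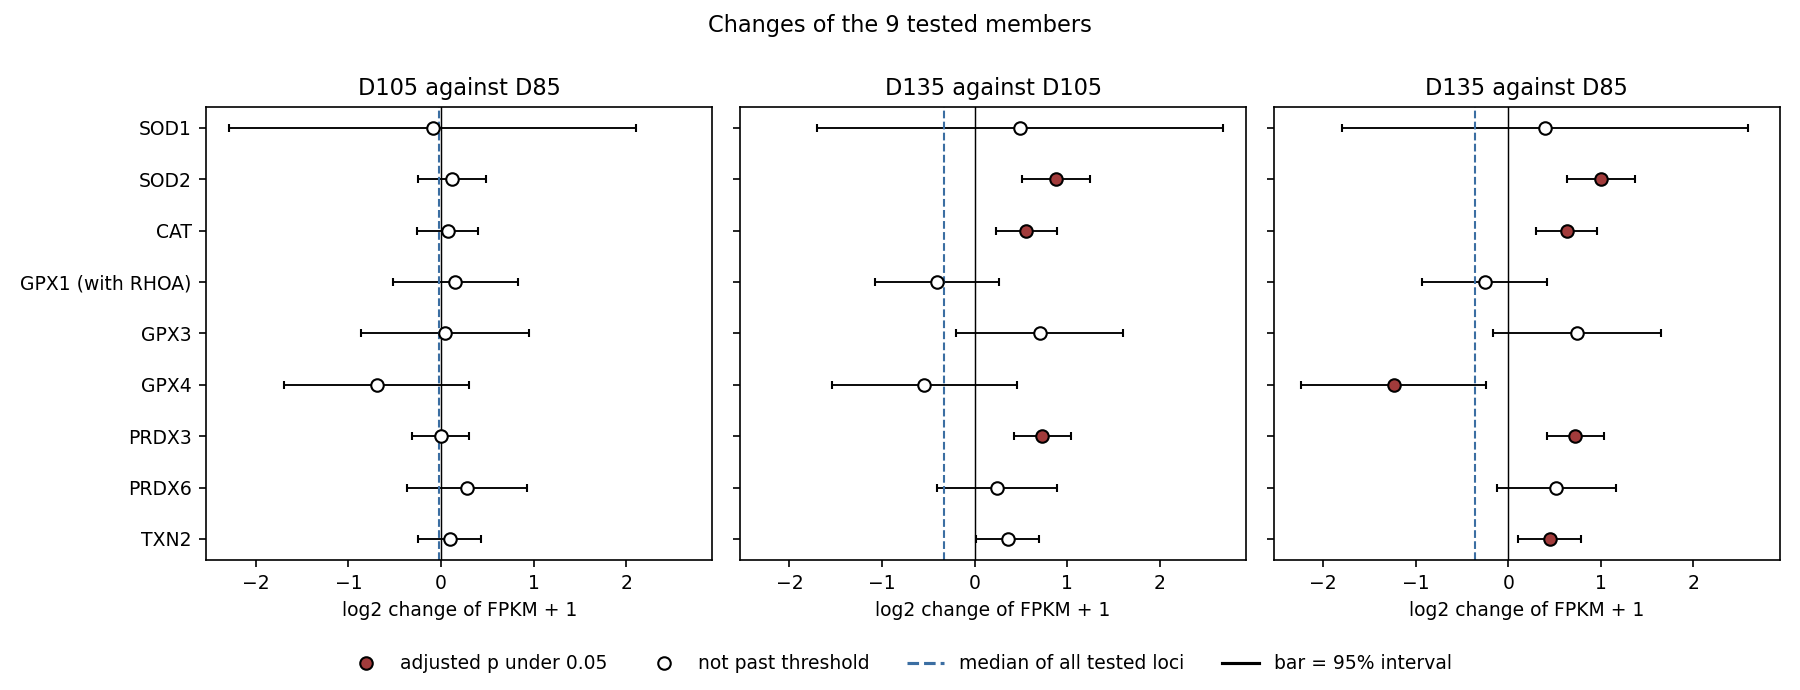
Log2 change of FPKM + 1 (x axes) of the 9 tested genes with 95% intervals in the comparisons D105 against D85, D135 against D105 and D135 against D85; filled points passed an adjusted p of 0.05 and the dashed line is the median of all tested loci. SOD2, CAT and PRDX3 lie right of 0 with narrow intervals in both comparisons with D135, and GPX4 and SOD1 have wide ones.

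SOD2, the manganese superoxide dismutase of the mitochondrial matrix, had the largest of the increases. Its level was 12.7, 13.4 and 15.6 FPKM in D85 replicates 1, 2 and 3, and 13.4, 16.4 and 15.9 FPKM in D105 replicates 1, 2 and 3. At D135 it was 35.9, 23.8 and 27.8 FPKM in replicates 1, 2 and 3. Every D135 library was above every earlier one, with replicate 1 the highest. SOD2 rose to 29.2 ± 6.12 FPKM at D135, against 13.9 ± 1.52 FPKM at D85 (SD, n = 3 each), a log2 change of 1.0 ± 0.16 SE (limma adjusted p = 0.00187). Against D105 the log2 change was 0.88 ± 0.16 SE (limma adjusted p = 0.00526). Both calls stood under all 21 alternative settings, which included 3 other scalings and leaving out each library.

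SOD1, the copper-zinc enzyme of the cytosol, could not be followed at its own locus. That locus was at 3.98, 11.9 and 17.0 FPKM in the D85 libraries, 2.42, 11.99 and 20.6 FPKM in the D105 libraries, and 26.0, 24.8 and 2.82 FPKM in the D135 libraries. Each day held a library under 4 FPKM and another above 16 FPKM, and the days overlapped. The log2 change for D135 against D85 was 0.40, with a 95% interval from -1.79 to 2.59 (limma adjusted p = 0.754). A further locus that the table names LOC101115136, and describes as a copper-zinc superoxide dismutase in the same words as SOD1, was steadier. It had 47.9, 32.6 and 33.8 FPKM at D85, 37.0, 29.9 and 34.6 FPKM at D105, and 36.1, 40.4 and 34.6 FPKM at D135. Its mean of 37.1 ± 3.01 FPKM at D135, against 38.1 ± 8.53 FPKM at D85, gave a log2 change of -0.02 (limma adjusted p = 0.929). The sign of that value was the opposite after median-of-ratios scaling (0.44), quantile normalization (0.13) and scaling to the total without the 50 highest loci (0.10).

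How reads were divided between the SOD1 locus and LOC101115136 is not given in the sources used here, so both are uncertain. Within a library the SOD1 locus was at 0.0832, 0.367 and 0.502 times LOC101115136 at D85, 0.0654, 0.401 and 0.595 times at D105, and 0.721, 0.612 and 0.0813 times at D135. The 3 libraries with a share under 0.1 were D85 replicate 1, D105 replicate 1 and D135 replicate 3. The SOD1 locus also holds 3 transcripts, of which 2 were assembled from the reads. The sum of both loci was 49.0 ± 3.97 FPKM at D85, 45.5 ± 8.53 at D105 and 54.9 ± 15.2 FPKM at D135 (SD, n = 3 each). The sum had a log2 change of 0.12 for D135 against D85 (limma adjusted p = 0.677), a value chosen after seeing the data. LOC101115136 passed for D135 against D105 only after median-of-ratios scaling, with a log2 change of 0.58 (limma adjusted p = 0.0488) in place of 0.13 (adjusted p = 0.543).

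**Figure D3:**
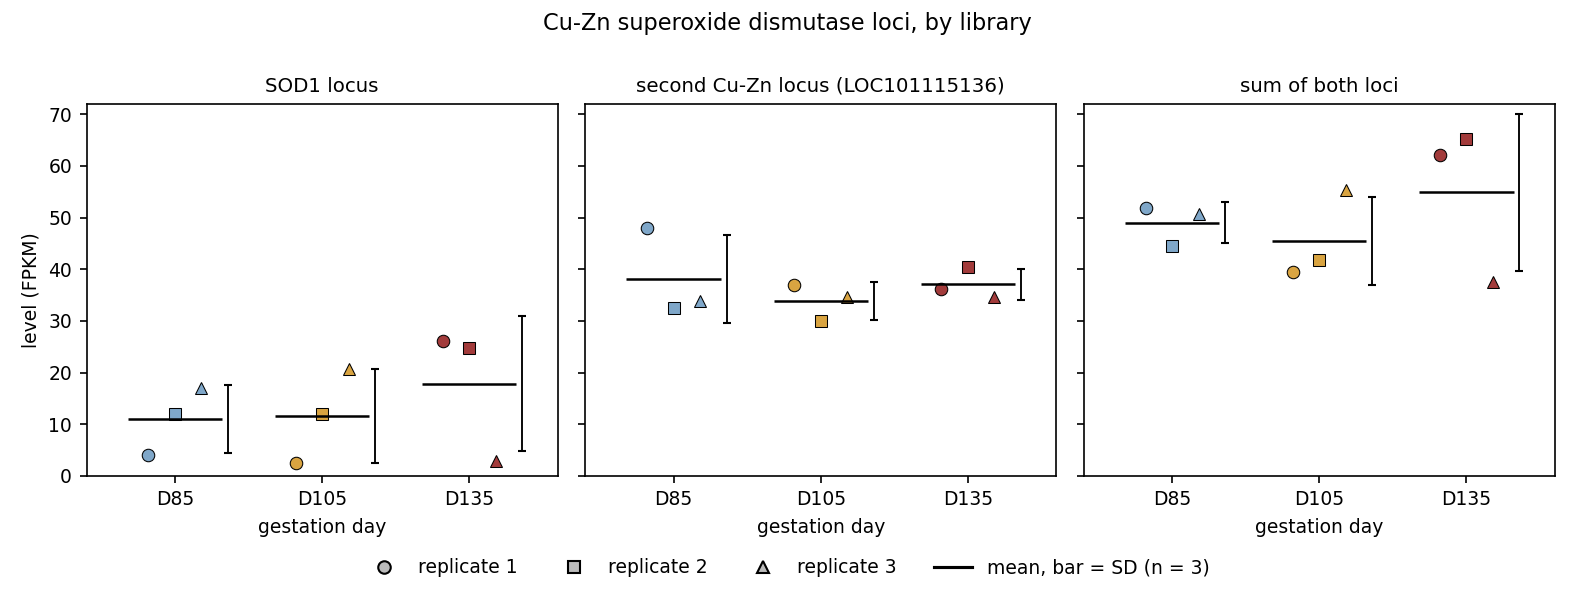
FPKM (y axis, linear) in each library at the SOD1 locus, at LOC101115136 and as their sum, at gestation days 85, 105 and 135 (x axes), with the mean and SD of 3 libraries. The SOD1 locus spans 2.42 to 26.0 FPKM with low and high libraries on every day, while LOC101115136 stays between 29.9 and 47.9 FPKM.

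SOD3, the secreted copper-zinc enzyme that binds the extracellular matrix, was near the lower end of what the table resolves. It had 0.301, 0.636 and 0.240 FPKM at D85, 0.448, 0.456 and 0.601 FPKM at D105, and 0.932, 0.492 and 0.888 FPKM at D135. No library reached 1 FPKM, and D135 overlapped both other days. Tested without the filter on low values, its log2 change for D135 against D85 was 0.35 (limma adjusted p = 0.0940).

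CAT encodes catalase, the haem enzyme that splits hydrogen peroxide into water and oxygen. The 3 D85 libraries were close together at 16.5, 16.3 and 15.9 FPKM. The D105 libraries had 16.1, 21.0 and 14.9 FPKM, and the D135 libraries 28.2, 27.4 and 22.0 FPKM. All D135 libraries were above all earlier ones, by the smallest margin between D135 replicate 3 and D105 replicate 2. CAT rose to 25.9 ± 3.40 FPKM at D135, against 16.3 ± 0.305 FPKM at D85 (SD, n = 3 each), a log2 change of 0.63 ± 0.14 SE (limma adjusted p = 0.00882). This call stood under all 21 alternatives. Against D105 the log2 change was 0.56 ± 0.14 SE (limma adjusted p = 0.0181). That call was lost without D105 replicate 1 (adjusted p = 0.0568), D105 replicate 3 (0.0562), D135 replicate 1 (0.0550) or D135 replicate 2 (0.0613).

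Catalase is abundant in red blood cells, and of 6 erythroid markers 3 were found, summing to between 2.02 and 3.67 FPKM at D85, 2.87 and 7.13 FPKM at D105, and 1.65 and 3.34 FPKM at D135. Globin transcripts were present on every day. The alpha-globin locus had 103.9, 69.8 and 75.7 FPKM at D85, 173, 275 and 133 FPKM at D105, and 57.1, 72.7 and 104.0 FPKM at D135. D85 replicate 1 and D105 replicate 2 were the highest libraries of their day in the erythroid sum, in alpha-globin and in CAT. D135 replicate 3 was the highest of its day in the erythroid sum and in alpha-globin, and the lowest in CAT. The locus described as fetal beta-globin-like had 65.8, 78.3 and 43.8 FPKM at D135, against 139, 116 and 225 FPKM at D85, and the beta-globin locus had 74.9, 142 and 70.4 FPKM at D135, against 2.10, 0.867 and 0.476 FPKM at D85. The part of red cells in the catalase values was not tested. In bulk tissue, fewer cells of a type and less RNA per cell cannot be told apart.

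PRDX3, the peroxiredoxin of the mitochondrial matrix, had the tightest D135 values of the 10 genes relative to its mean. It was at 16.7, 14.0 and 11.6 FPKM in the D85 libraries and at 13.4, 15.7 and 12.8 FPKM in the D105 libraries. In the D135 libraries it was at 24.4, 23.4 and 23.5 FPKM, above every library of D85 and D105. PRDX3 rose to 23.8 ± 0.548 FPKM at D135, against 14.1 ± 2.51 FPKM at D85 (SD, n = 3 each), a log2 change of 0.73 ± 0.13 SE (limma adjusted p = 0.00350). Against D105 the log2 change was 0.73 ± 0.13 SE as well (limma adjusted p = 0.00543). Both calls stood under all 21 alternatives.

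TXN2 encodes the mitochondrial thioredoxin that gives electrons back to PRDX3. It had 12.8, 16.6 and 11.4 FPKM at D85, 14.8, 14.3 and 14.1 FPKM at D105, and 16.3, 21.3 and 18.8 FPKM at D135. The D135 libraries were all above those of D105, but D135 replicate 1 lay below D85 replicate 2. TXN2 rose to 18.8 ± 2.52 FPKM at D135, against 13.6 ± 2.69 FPKM at D85, with a log2 change of 0.45 ± 0.15 SE (limma adjusted p = 0.0366). The call was lost in 7 of 21 alternatives: without D85 replicate 1 (adjusted p = 0.0966), D85 replicate 3 (0.107), D105 replicate 1 (0.0522), D105 replicate 3 (0.0526), D135 replicate 2 (0.116) or D135 replicate 3 (0.0832), and with only the libraries of both days fitted (0.0726). Against D105 its log2 change of 0.36 ± 0.15 SE did not pass (limma adjusted p = 0.0868), but it passed after median-of-ratios scaling (0.00921), quantile normalization (0.0248) and scaling to the total without the 50 highest loci (0.0454), and without D85 replicate 2 (0.0435).

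PRDX6, a peroxiredoxin of the cytosol that uses glutathione and also acts on phospholipids, had 14.0, 12.4 and 12.98 FPKM at D85 and 10.9, 13.9 and 27.5 FPKM at D105. At D135 it had 19.2, 18.3 and 20.3 FPKM. D135 lay above D85 without overlap, while D105 replicate 3 was above every D135 library. The log2 change for D135 against D85 was 0.52 ± 0.28 SE and did not pass (limma adjusted p = 0.161). Without D105 replicate 3, which enters the common estimate of spread, the same change passed (adjusted p = 0.01004), and the change against D105 was 0.61 (adjusted p = 0.0157) in place of 0.24 (adjusted p = 0.519). The D135 against D85 call was also gained after median-of-ratios scaling (adjusted p = 0.0376) and with only the libraries of both days fitted (adjusted p = 0.00728).

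GPX4, the selenoprotein that reduces lipid peroxides in membranes and thereby holds off ferroptosis, had 51.4, 41.9 and 50.7 FPKM in the D85 libraries. It had 47.3, 38.2 and 13.5 FPKM in the D105 libraries and 23.2, 13.3 and 24.6 FPKM in the D135 libraries. All D135 libraries were below all D85 libraries, and D105 was divided, with replicate 3 near the lowest D135 value. GPX4 fell to 20.4 ± 6.15 FPKM at D135, against 48.0 ± 5.30 FPKM at D85 (SD, n = 3 each), a log2 change of -1.24 ± 0.43 SE with a 95% interval from -2.23 to -0.24 (limma adjusted p = 0.0462).

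The GPX4 call stood close to the threshold and was lost in 13 of 21 alternatives. After median-of-ratios scaling its log2 change was -0.78 (limma adjusted p = 0.217), after quantile normalization it was -1.05 (adjusted p = 0.118), and the sign was the same in all 21. The call was lost without D85 replicate 1 (adjusted p = 0.108), D85 replicate 2 (0.0788), D85 replicate 3 (0.102), D105 replicate 2 (0.0541), D135 replicate 1 (0.0710), D135 replicate 2 (0.141) or D135 replicate 3 (0.0637). Without D105 replicate 3 the adjusted p for D135 against D85 was 0.00611. Without that library GPX4 was also called lower at D135 than at D105, with a log2 change of -1.07 (adjusted p = 0.0244) in place of -0.54 (adjusted p = 0.346).

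GPX1, the glutathione peroxidase of cytosol and mitochondria, was counted at a locus that joins it with its neighbour RHOA, a small GTPase, so its values cannot be assigned to GPX1 alone. The joined locus had 21.9, 19.6 and 9.46 FPKM at D85, 19.7, 18.3 and 16.0 FPKM at D105, and 12.3, 11.2 and 17.0 FPKM at D135. D85 replicate 3 was the lowest library of all. The log2 change for D135 against D85 was -0.25 (limma adjusted p = 0.507), and it had the opposite sign after median-of-ratios scaling (0.19) and quantile normalization (0.05). Without D85 replicate 3 it passed, at -0.60 (adjusted p = 0.0365).

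GPX3, the secreted glutathione peroxidase, was at 4.37, 2.56 and 0.947 FPKM at D85, 2.65, 2.14 and 2.56 FPKM at D105, and 5.34, 6.75 and 2.57 FPKM at D135. D135 replicate 3 was at the level of D105, and the other D135 libraries were above every earlier one. Its log2 change of 0.75 for D135 against D85 did not pass (limma adjusted p = 0.154, 95% interval from -0.16 to 1.65).

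Ratios between genes within a library do not change when a library is multiplied by a factor. SOD2 was at 0.246, 0.320 and 0.308 times GPX4 in replicates 1, 2 and 3 of D85, 0.283, 0.429 and 1.17 times in those of D105, and 1.55, 1.79 and 1.13 times in those of D135. D105 replicate 3 thus lay among the D135 values. GPX4 was at 3.09, 2.98 and 4.36 times PRDX3 at D85, 3.53, 2.43 and 1.05 times at D105, and 0.950, 0.571 and 1.05 times at D135. GPX4 was at 3.11, 2.57 and 3.18 times CAT at D85, 2.94, 1.82 and 0.911 times at D105, and 0.822, 0.487 and 1.12 times at D135. All 3 ratios hold GPX4, and that D135 and D85 do not overlap in them follows from the levels of the single genes given above, so they describe the size of the shift and add no separate evidence. PRDX3 stayed close to TXN2, at a median of 1.02 times at D85, 0.914 at D105 and 1.25 at D135.

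**Figure D4:**
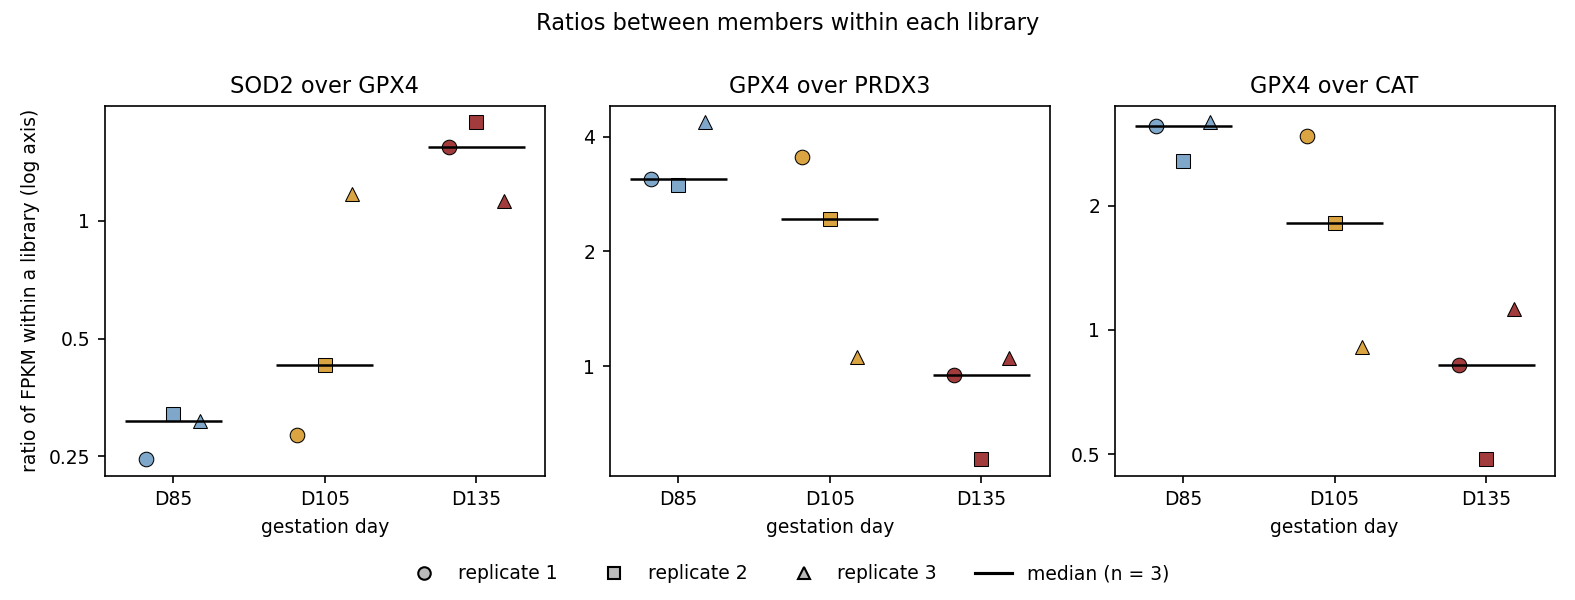
Ratios of FPKM within each library (y axes, log scale) for SOD2 over GPX4, GPX4 over PRDX3 and GPX4 over CAT at gestation days 85, 105 and 135 (x axes), with the median of 3 libraries as a line. D85 and D135 lie apart in each panel, and D105 replicate 3 lies with the D135 libraries.

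Other genes of these pathways were read from lists for D135 against D85, and the number of calls in several lists depended on scaling and on single libraries. Each count from the deposited values stands beside 6.90% of all tested loci called higher and 39.7% called lower in this comparison. Each list median stands beside -0.35 for all loci. Counts after median-of-ratios scaling stand beside other totals, 1952 loci higher and 1642 lower of 13086. Counts without 1 library stand beside 751 to 933 loci higher and 3969 to 5219 lower. Of 15 tested other peroxiredoxin and thioredoxin genes, 2 rose, 2 fell and 11 did not pass, with a median log2 change of -0.04, while median-of-ratios scaling gave 5 higher and 1 lower. TXNIP, which binds and inhibits thioredoxin, rose to 62.2 ± 3.64 FPKM at D135, against 20.5 ± 2.79 FPKM at D85 (log2 change 1.56 ± 0.13 SE, limma adjusted p = 0.000165). SESN1, a sestrin that takes part in peroxide defence and in TOR signalling, rose to 11.4 ± 1.34 FPKM at D135, against 6.32 ± 0.521 FPKM at D85 (log2 change 0.76, limma adjusted p = 0.00121). TXNRD3, a thioredoxin reductase best known from testis, fell to 1.91 ± 0.0571 FPKM at D135, against 3.75 ± 0.524 FPKM at D85 (log2 change -0.70, limma adjusted p = 0.00184). These 3 calls stood under every scaling and without any single library.

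TXNRD2, the mitochondrial reductase that recharges TXN2, averaged 5.40 FPKM at D135, against 6.70 FPKM at D85 (log2 change -0.27, limma adjusted p = 0.0392). Its sign was the opposite after median-of-ratios scaling (0.14) and quantile normalization (0.08), and among the fits without 1 library the call stood only without D105 replicate 2 or D135 replicate 1, so that the list had 1 fallen gene in the other 7. A further locus described as TXNRD2, LOC105602968, had 0.740 to 3.71 FPKM over all libraries. The cytosolic peroxiredoxins were far more abundant and did not pass: PRDX1 averaged 84.4 FPKM at D135, against 87.7 FPKM at D85, and PRDX2 averaged 112 FPKM at D135, against 126 FPKM at D85. PRDX5, a peroxiredoxin that also occurs in mitochondria, did not pass either. It averaged 36.1 ± 3.14 FPKM at D135, against 32.9 ± 1.28 FPKM at D85.

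Of 15 tested glutathione genes, 1 rose, 6 fell and 8 did not pass (median -0.34), shares close to the 6.90% and 39.7% of all loci. With median-of-ratios scaling the counts were 3 higher and 0 lower, and 3 rose without D85 replicate 1 and 2 without D105 replicate 3. Between 4 and 6 fell when a library was left out. MGST2, a microsomal glutathione transferase, rose to 15.5 ± 6.13 FPKM at D135, against 2.54 ± 1.15 FPKM at D85 (log2 change 2.20 ± 0.29 SE, limma adjusted p = 0.000889). GPX7, a peroxidase of the endoplasmic reticulum, fell to 11.4 ± 4.39 FPKM at D135, against 23.1 ± 1.06 FPKM at D85 (log2 change -1.02, limma adjusted p = 0.01005, and 0.119 after median-of-ratios scaling). PGD, an NADPH-producing enzyme of the pentose phosphate pathway, averaged 7.49 FPKM at D135, against 14.5 FPKM at D85 (log2 change -0.87, limma adjusted p = 0.00337, and 0.0697 after median-of-ratios scaling).

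NRF2, encoded by NFE2L2, is the transcription factor that turns on many antioxidant genes. Of 13 tested genes of its pathway and targets, 2 rose, 4 fell and 7 did not pass (median -0.18), while median-of-ratios scaling gave 6 higher and 0 lower. NFE2L2 itself averaged 6.07 FPKM at D135, against 4.77 FPKM at D85, and did not pass (limma adjusted p = 0.0712). FTL, the ferritin light chain, fell to 36.05 ± 5.70 FPKM at D135, against 67.5 ± 8.45 FPKM at D85 (log2 change -0.89, limma adjusted p = 0.00489, and 0.108 after median-of-ratios scaling). NQO1 rose to 2.67 ± 0.875 FPKM at D135, against 1.16 ± 0.183 FPKM at D85 (log2 change 0.74, limma adjusted p = 0.0401). The NQO1 call stood under every scaling but was kept in only 4 of 9 fits without 1 library. FTH1 averaged 115.96 ± 26.5 FPKM at D135, against 70.02 ± 27.03 FPKM at D85. SQSTM1 averaged 35.8 ± 4.16 FPKM at D135, against 23.2 ± 3.06 FPKM at D85. By sign alone 6 genes of this list were higher and 7 lower. The number that fell was between 2 and 3 over the 9 fits without 1 library, below the 4 of the full fit. It was 2 without D85 replicate 2, any single D105 library, D135 replicate 1 or D135 replicate 3. The number that rose was 1 without D85 replicate 1, D85 replicate 3 or D135 replicate 3.

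GPX4, GPX1 and GPX3 carry selenocysteine, and their log2 changes for D135 against D85 were -1.24, -0.25 and 0.75, of which only that of GPX4 passed. Of 13 other tested selenoproteins and genes of selenocysteine insertion 0 rose, 5 fell and 8 did not pass (median -0.17), and the share that fell was close to the 39.7% of all loci. Median-of-ratios scaling gave 1 higher and 0 lower. SELENOS, an endoplasmic reticulum selenoprotein, averaged 4.47 FPKM at D135, against 8.02 FPKM at D85 (log2 change -0.73, limma adjusted p = 0.00861, and 0.166 after median-of-ratios scaling). SEPSECS, which makes the selenocysteine tRNA, averaged 2.47 FPKM at D135, against 3.97 FPKM at D85 (log2 change -0.52, limma adjusted p = 0.00429, and 0.279 after median-of-ratios scaling). The number that fell was 3 without D85 replicate 1, D85 replicate 2 or D135 replicate 3, and 2 without D135 replicate 1 or D135 replicate 2. Without D85 replicate 2, 1 rose.

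Superoxide dismutases need copper, zinc or manganese, and of 6 tested genes of metal supply 0 rose, 3 fell and 3 did not pass (median -0.43), while median-of-ratios scaling gave 0 higher and 1 lower. ATOX1, a copper chaperone, fell to 13.9 ± 1.201 FPKM at D135, against 27.3 ± 4.13 FPKM at D85 (log2 change -0.91 ± 0.12 SE, limma adjusted p = 0.00101). Its call stood under every scaling and without any single library. CCS, which loads copper into SOD1, averaged 8.36 FPKM at D135, against 14.0 FPKM at D85 (log2 change -0.66, limma adjusted p = 0.0312). The CCS call was lost after median-of-ratios scaling (0.440), quantile normalization (0.267) and scaling to the total without the 50 highest loci (0.0665). It was also lost without D85 replicate 2 (0.0962), D135 replicate 1 (0.0758), D135 replicate 2 (0.0860) or D135 replicate 3 (0.0532). The number that fell was 1 without D135 replicate 2.

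Of 11 tested regulators of mitochondrial and antioxidant genes, 2 rose, 2 fell and 7 did not pass (median -0.23), while median-of-ratios scaling gave 5 higher and 0 lower. ESRRA, a nuclear receptor that drives mitochondrial genes, rose to 3.91 ± 0.197 FPKM at D135, against 2.10 ± 0.401 FPKM at D85 (log2 change 0.67 ± 0.11 SE, limma adjusted p = 0.00257). FOXO3 also rose (0.31, adjusted p = 0.0332), a call kept in 5 of 9 fits without 1 library. NRF1 fell (-0.52, adjusted p = 0.0167, and 0.461 after median-of-ratios scaling), kept in 7 of 9. TFAM fell (-0.41, adjusted p = 0.0408, and 0.998 after median-of-ratios scaling), kept in 3 of 9. The number of regulators that rose was 1 without D85 replicate 1 or 2 or D135 replicate 1 or 2. The number that fell was 0 without D85 replicate 2, and 1 without any other single D85 or D135 library. Of 3 tested sources of oxidants 0 rose and 0 fell in the limma fit (median -0.28), and 1 fell without D85 replicate 2 or D135 replicate 1. The counts were also 0 and 0 at an unadjusted p under 0.05, where at least 6.90% of all loci were higher and 39.7% lower. Among them MAOA averaged 2.92 FPKM at D135, against 3.71 FPKM at D85, and CYBB averaged 1.83 FPKM at D135, against 3.05 FPKM at D85.

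Mitochondrial content was read from 15 tested genes, of which 6 rose, 0 fell and 9 did not pass (median 0.18), between 4 and 6 rose when a library was left out, and 9 rose after median-of-ratios scaling. The list was divided, with 9 genes higher and 6 lower by sign alone. Among the lower ones, TOMM22 averaged 12.7 ± 7.67 FPKM at D135, against 22.0 ± 3.45 FPKM at D85. TOMM70 averaged 11.3 ± 1.82 FPKM at D135, against 14.5 ± 1.10 FPKM at D85. VDAC1, a pore of the outer mitochondrial membrane, rose to 29.6 ± 2.51 FPKM at D135, against 17.0 ± 1.46 FPKM at D85 (log2 change 0.76, limma adjusted p = 0.000733). VDAC2, a sister pore, rose to 75.7 ± 5.21 FPKM at D135, against 49.8 ± 1.51 FPKM at D85 (log2 change 0.59, limma adjusted p = 0.00546). The matrix chaperone HSPA9 rose by a log2 change of 0.51 (limma adjusted p = 0.0111). Citrate synthase (CS), counted at a locus joined with CNPY2, rose by 0.64 (limma adjusted p = 0.0125). These changes lay beside 1.0 for SOD2, 0.73 for PRDX3 and 0.45 for TXN2 in the same comparison. The fibre marker CKM averaged 3501 FPKM at D135, against 633 FPKM at D85, and the part of fibre maturation in the antioxidant values was not tested.

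**Figure D5:**
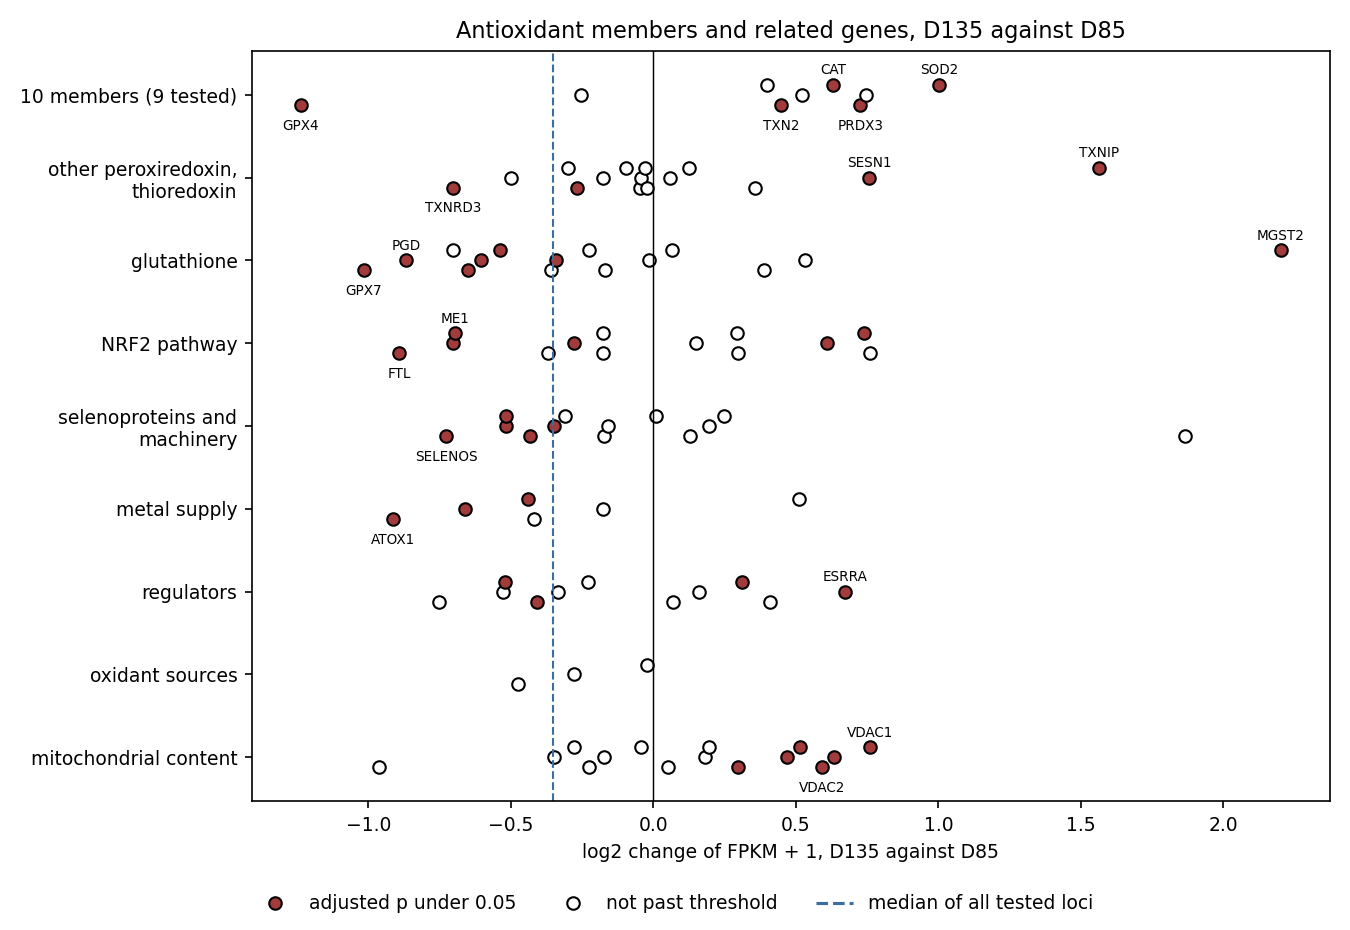
Log2 change of FPKM + 1 for D135 against D85 (x axis) of the 9 tested antioxidant genes and of the tested genes in the 8 other lists (rows); filled points passed an adjusted p of 0.05, and the dashed line is the median of all tested loci at -0.35. Mitochondrial content holds 6 filled points, all right of 0, and the selenoprotein and metal supply lists hold filled points left of 0 only, where median-of-ratios scaling called 1 selenoprotein gene higher and 0 lower, and 0 metal supply genes higher and 1 lower. Over all 13086 loci that scaling called 1952 higher and 1642 lower.

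Of the fibre markers 4 of 6 rose and 0 fell for D135 against D85. Among markers of other cells, 1 of 4 tested adipocyte markers and 3 of 6 endothelial markers rose, 1 of 4 tendon and cartilage and 1 of 2 leukocyte markers fell, and 1 of 6 smooth muscle and pericyte markers rose and 3 fell. Marker counts, those of fibres included, were read from the deposited values only. They were not repeated after other scalings or without single libraries. Of 6 fibroblast markers and 1 tested erythroid marker, 0 passed in the limma fit, where 6.90% of all loci were called higher and 39.7% lower. At an unadjusted p under 0.05 the count was 0 too, where at least those shares of all loci passed. Adipocyte markers summed to 35.4, 72.2 and 13.8 FPKM at D135, against 16.4, 2.26 and 2.48 FPKM at D85. Fibroblast markers summed to between 1362 and 3218 FPKM at D135 and between 1986 and 3141 FPKM at D85, endothelial markers to between 166 and 207 at D135 and between 147 and 174 at D85, and smooth muscle and pericyte markers to between 94.5 and 123 at D135 and between 140 and 179 at D85. Tendon and cartilage markers summed to between 3.42 and 114 FPKM at D135 and between 18.7 and 56.9 FPKM at D85. For 5 of 6 leukocyte markers found, the sum was between 11.3 and 13.9 FPKM at D135 and between 12.6 and 21.4 FPKM at D85. No marker found was at 0 in all libraries, and the part of these cells in the antioxidant values was not tested.

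For each of the 5 called genes, the named locus with the most similar profile over the 9 libraries was sought by the root mean square difference of centred log2 values. PRDX3 lay closest to NDUFC2, a subunit of respiratory complex I, at a difference of 0.102. NDUFC2 averaged 34.7 FPKM at D135, against 20.9 FPKM at D85. CAT lay closest to PCCB, a subunit of mitochondrial propionyl-CoA carboxylase, at 0.0706, and PCCB averaged 21.7 FPKM at D135, against 13.1 FPKM at D85. TXN2 lay closest to CLUH, a cytosolic protein that binds mRNAs of mitochondrial proteins, at 0.0888. SOD2 lay closest to SH3RF2, a ubiquitin ligase, at 0.128. SH3RF2 averaged only 2.05 FPKM at D135, against 0.686 FPKM at D85 and 0.820 FPKM at D105, so it passed the filter on low values through the day on which it was high. GPX4 lay closest to MRPL50, of the mitochondrial ribosome, at 0.238, the loosest match of the 5, and MRPL50 averaged 1.25 FPKM at D135, against 4.83 FPKM at D85.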

How the data were processed

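RNA of 9 longissimus dorsi libraries was analysed, 3 at each of 3 gestation days, grouped by the age in the labels. The authors deposited FPKM values, per the file headers, in 1 column for each library. The submitters' processing notes name cutadapt, TopHat2 and Bowtie2 but neither their versions nor their order. Genome build, assembler and quantification tool were not given in the sources used here. Among the loci, 211 join several gene names. The design text names a pair of sequencer models and does not assign libraries to them, so that batch could not be tested. FPKM holds no counts, so no count test was run and no interval for counting error is given.

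After a filter that kept loci with FPKM 1 or more in at least 3 libraries, limma 3.58.1 (R 4.3.3) was run on log2(FPKM + 1). A single fit of 9 libraries used eBayes with a trend, two-sided tests and Benjamini-Hochberg adjustment over 13086 loci at 0.05. The procedure was tested on simulated data. Plots were made in Python 3.11.15 (matplotlib 3.10.9).

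The members and lists were chosen with earlier results of these data known. Of 163 list entries 152 matched a locus, 4 of them through gene identifiers of a RefSeq table (ARS-UI_Ramb_v3.0), used for names only. Genes named were all members and, per list, up to 4 called for D135 against D85 with the largest change, or the 2 with the highest mean where fewer than 2 were called. After seeing the data these were limited to genes whose call stood without each library, with TXNRD2 and CCS kept as partners of members. FOXO3, NRF1, TFAM and NQO1 were kept so that their lists show both directions. PRDX1, PRDX2, PRDX5, NFE2L2, FTH1, SQSTM1, TOMM22, TOMM70 and the globins were added. 1 gene that this rule names is not reported here. For each called member the named locus of closest profile was taken. Alternatives changed the pseudocount, filter, scaling, variance model, weights, libraries and a replicate block, and the sum of the copper-zinc loci was added after seeing the data. Whether replicate numbers pair libraries is not stated in the labels. The 9 same-number pairs had r between -0.0659 and 0.0605 for their deviations from the day means. With 3 libraries a day these deviations sum to 0, so the values do not settle whether libraries were paired.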

Additional observations from a re-analysis of the deposited data

How the results depend on the processing

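SOD2 and PRDX3 kept their calls in both comparisons with D135, and CAT its call against D85, under all 21 alternatives. Leaving out each library in turn gave 2 to 4 members higher and 0 to 1 lower for D135 against D105, 3 to 4 higher and 0 to 1 lower for D135 against D85, and 0 and 0 for D105 against D85. The 1 member lower for D135 against D85 became 0 with no filter, after median-of-ratios scaling, quantile normalization or scaling to the total without the 50 highest loci, and with robust variances or a replicate block. With the replicate block 4 members were higher and 0 lower for D135 against D85, and over all loci 835 were higher and 4660 lower, against 903 and 5194 without it. It also ended the calls of TXNRD2 (adjusted p = 0.0821), CCS (0.0561), NQO1 (0.0750) and FOXO3 (0.0729). By number, 3 of 9 libraries correlated best with their own number. Each gene had 1 locus, so a sum of loci with the same name was not run. In both comparisons with D135 scaling moved the all-loci counts: median-of-ratios scaling gave 1952 higher and 1642 lower for D135 against D85, and 1389 and 911 for D135 against D105, where the deposited values gave 585 and 4579. Signs were the opposite after median-of-ratios scaling for PRDX3 in D105 against D85 (0.0099), GPX1 in D135 against D105 (0.026) and D135 against D85 (0.19), and, in D135 against D85, LOC101115136 (0.44), TXNRD2 (0.14), SELENOF (0.024) and MAOA (0.082). They were the opposite after quantile normalization for PRDX3 (0.023), GPX1 (0.052), LOC101115136 (0.13), TXNRD2 (0.076) and MAOA (0.061) in the same comparisons with D85, and after scaling without the 50 highest loci for PRDX3 (0.024) and LOC101115136 (0.10). When 1 library was left out, D105 against D85 spanned -0.66 to 0.67 for SOD1, -0.069 to 0.17 for CAT, -0.20 to 0.37 for GPX1, -0.35 to 0.39 for GPX3, -0.13 to 0.12 for PRDX3, -0.088 to 0.55 for PRDX6, -0.017 to 0.24 for TXN2 and -0.25 to 0.023 for LOC101115136. D135 against D105 spanned -0.27 to 1.42 for SOD1 and -0.025 to 0.61 for PRDX6, and D135 against D85 spanned -0.14 to 1.33 for SOD1 and -0.12 to 0.15 for LOC101115136. The causes were not tested. With 3 libraries a day, unknown depth and SOD1 and GPX1 not separable from other loci, small changes were not detectable.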
